A study of Mus musculus with 6 samples.

Results

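The clustered protocadherin genes of the embryonic mouse heart were examined in Trim28 conditional knockout (CKO) and control (CTR) libraries. They were the rows of the deposited count table whose symbol names an alpha, beta or gamma protocadherin of the clusters (Pcdha, Pcdhac, Pcdhb, Pcdhga, Pcdhgb and Pcdhgc followed by a number). This gave 50 of 30619 rows, of which 8 belonged to the alpha cluster, 21 to the beta cluster and 21 to the gamma cluster. In the comparison of CKO with CTR hearts, 0 of the 42 members with enough counts to be tested passed the threshold. The one nearest to it was Pcdhgc3, the most abundant member, which was 0.25 higher on the log2 scale in CKO hearts (SE 0.07) at an adjusted p of 0.0516 in edgeR's quasi-likelihood test.

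Poly(A) RNA was sequenced from whole E12.5 hearts, with 3 libraries labelled CKO and 3 labelled CTR. The genotype label of the CKO libraries reads TRIM28 knockdown and that of the CTR libraries WT, and the titles were followed for the groups. TRIM28 (KAP1) silences genes as a co-repressor of zinc finger proteins, at whose binding sites it gathers heterochromatin factors. The Cre driver, the exons removed, the control alleles and the number of hearts pooled are not stated in the labels. Separate animals are not stated for the replicates either, so a p-value reflects the spread among these libraries, which may be technical.

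Clustered protocadherins are cadherin-like adhesion proteins. Each alpha or gamma gene has its own promoter and large first exon, which encodes the extracellular part, and its transcript is spliced to constant exons that the whole cluster shares, while each beta gene is a single exon with no constant part. In neurons, where they are best known, a cell uses a small set of the variable promoters, and matching combinations on the membranes of a cell allow it to recognise itself. The C-type genes at the end of the alpha and gamma clusters are used more uniformly in mouse neurons than the others. Promoter choice depends on DNA methylation and on loops made by CTCF and cohesin. In mouse cells the histone methyltransferase SETDB1, a partner of TRIM28, and the chromatin protein SMCHD1 act on the clusters.

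All members lie on the plus strand of chromosome 18 (mm10 build, GENCODE M21 annotation). The alpha cluster spans 36930184 to 37187661, the measured beta genes 37294812 to 37524479 and the gamma cluster 37661793 to 37841873. Annotation was found for 49 members, since the symbol Pcdha11 belongs to more than 1 annotated gene. All 21 beta members had a single exon, and 18 of them shared no exon sequence with another gene. The alpha members shared 48.6% to 63.6% of their exon length with other genes and the gamma members 31.5% to 73.6%. How reads in these shared exons were counted is not stated. Pcdha1 held 1 count over all 6 libraries and Pcdhac2 held 328, although both are annotated with the same constant exons, so constant-exon reads had not been added to every gene. Levels between genes are therefore given as CPM (counts scaled to library size) per kilobase of exon that no other gene shares.

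The libraries held 37024246, 34400841 and 39763233 counts in the CKO group and 39702929, 38449175 and 36854002 counts in the CTR group. Trim28 had 172, 314 and 165 CPM in the libraries labelled CKO1, CKO2 and CKO3, against 305, 391 and 443 CPM in CTR1, CTR2 and CTR3. The library labelled CKO2 lay within the range of the controls, and Trim28 did not pass the test (log2 fold change -0.81, SE 0.34, edgeR adjusted p 0.339). Without that library the Trim28 log2 fold change was -1.17 (SE 0.20, edgeR adjusted p 0.0763). Cardiomyocyte markers summed to 22513 to 23485 CPM in CKO libraries and 21006 to 22217 CPM in CTR libraries, and the labelled tissue showed its defining genes throughout. Lung and liver markers summed to 0.632 to 0.726 CPM in CKO libraries and 0.552 to 0.801 CPM in CTR libraries. A ribosomal RNA row took 0.790%, 0.672% and 0.563% of the counts in CKO1, CKO2 and CKO3, against 0.522%, 0.222% and 0.127% in CTR1, CTR2 and CTR3, with no overlap between the groups.

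The gamma cluster carried most of the signal. Over all libraries the members held 50235 counts, of which 82.0% fell on gamma genes, 17.2% on beta genes and 0.768% on alpha genes. They made up 0.0220%, 0.0226% and 0.0228% of all counts in CKO1, CKO2 and CKO3, against 0.0219%, 0.0215% and 0.0225% in CTR1, CTR2 and CTR3. All 21 gamma members had at least 10 counts in every library, as did 16 of 21 beta members and 1 of 8 alpha members. The median level was 2.53 CPM per kilobase over the 21 gamma members and 0.334 CPM per kilobase over the 20 tested beta members. By whole exon length the gamma median was 1.14 CPM per kilobase.

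**Figure D1:**
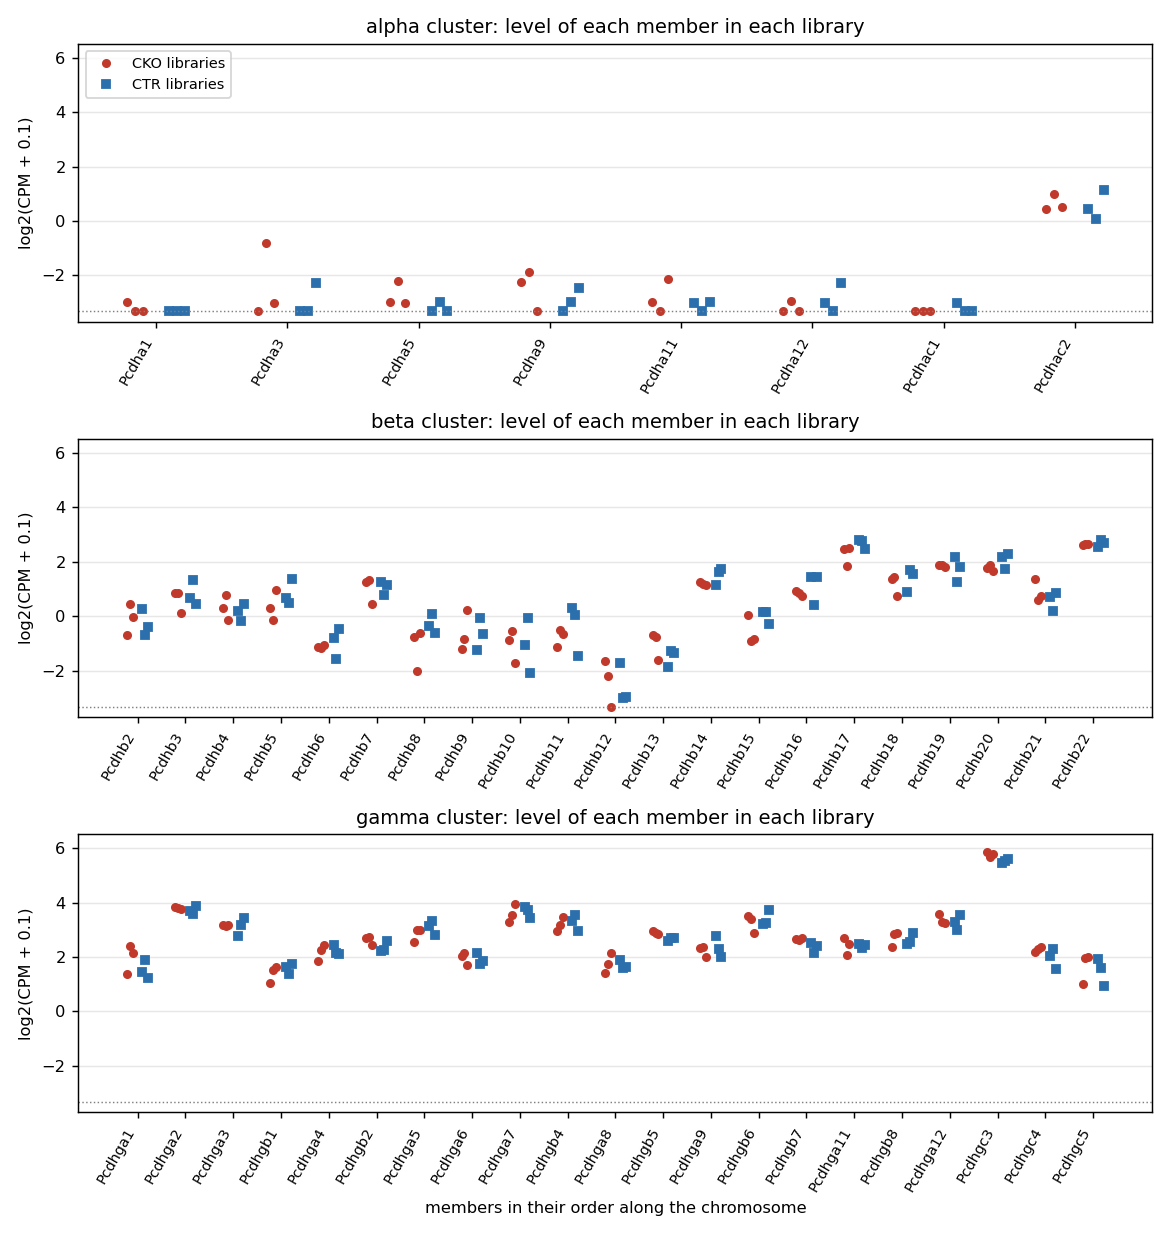
Level of each clustered protocadherin gene in each library, as log2(CPM + 0.1), with members in chromosomal order. Red circles are the 3 CKO libraries, blue squares the 3 CTR libraries, and the dotted line marks a count of 0. Pcdhgc3 stands above all other members, the gamma genes lie above most beta genes, and 7 of 8 alpha genes have a library at 0.

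Pcdhgc3, a C-type gamma gene whose protein promotes dendrite branching in mouse cortical neurons, had 58.1, 51.3 and 55.4 CPM in CKO1, CKO2 and CKO3, against 44.2, 46.3 and 48.5 CPM in CTR1, CTR2 and CTR3. Every CKO library was higher than every CTR library. The means were 54.9 ± 3.40 CPM in CKO hearts and 46.3 ± 2.11 CPM in CTR hearts (SD, n = 3 each), and the 95% confidence interval of the log2 fold change was 0.10 to 0.39. The unadjusted p was 0.00218 and the adjusted p over all 17557 tested genes was 0.0516 (edgeR), which missed the threshold of 0.05.

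That outcome depended on the processing. DESeq2 gave Pcdhgc3 an adjusted p of 0.0382, edgeR without a filter on low counts 0.0404, edgeR on genes reaching 1 CPM in 3 or more libraries 0.0405, and the older form of edgeR's quasi-likelihood fit, added after the data were seen, 0.0474. Limma-voom gave 0.0615. Without the library labelled CKO2 the log2 fold change was 0.29 and the edgeR adjusted p 0.00905, while leaving out any other single library gave adjusted p values between 0.110 and 0.224. With the ribosomal RNA share as a covariate the log2 fold change was 0.32 and the edgeR adjusted p 0.367. The part of the ribosomal RNA share in the Pcdhgc3 difference was not tested beyond this fit. Smooth muscle markers also separated the groups, with sums of 2142 to 2602 CPM in CKO libraries and 1509 to 1533 CPM in CTR libraries, and their part in it was not tested. The log2 fold change stayed between 0.20 and 0.32 in all 17 alternatives. In these bulk libraries fewer cells of a type and less RNA per cell cannot be told apart.

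Per kilobase of unshared exon, Pcdhgc3 stood at 30.2 ± 1.86 CPM in CKO hearts and 25.4 ± 1.16 CPM in CTR hearts (SD, n = 3 each). Its mean level was 5.33-fold that of Pcdhga2, the member with the next highest level, and 3.22-fold by whole exon length. It supplied 31.4%, 27.4% and 28.6% of the gamma counts in CKO1, CKO2 and CKO3, against 25.2%, 26.5% and 27.2% in CTR1, CTR2 and CTR3, and each CKO share exceeded all CTR shares. The antisense gene BC037039 overlaps an exon of Pcdhgc3, and without a stated strand setting their reads cannot be told apart. The unshared length of Pcdhgc3, 1821 of 5499 bp, leaves out this overlap as well as the constant exons. That raises its level per kilobase of unshared exon and the 5.33-fold ratio, and a value without only the constant exons was not computed. BC037039 had 9, 10 and 42 counts in CKO1, CKO2 and CKO3 and 26, 34 and 27 counts in CTR1, CTR2 and CTR3, against at least 1763 counts of Pcdhgc3 in each library.

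The other gamma C-type genes were much less abundant. Pcdhgc4, which neurons need for survival in mice, had 4.41, 4.76 and 5.10 CPM in CKO1, CKO2 and CKO3, against 4.04, 4.80 and 2.83 CPM in CTR1, CTR2 and CTR3 (log2 fold change 0.29, SE 0.21, edgeR adjusted p 0.510). The groups overlapped, and the library CTR3 was the lowest. Pcdhgc5 had 1.93, 3.84 and 3.94 CPM in CKO1, CKO2 and CKO3, against 3.74, 2.91 and 1.82 CPM in CTR1, CTR2 and CTR3 (log2 fold change 0.19, SE 0.29, edgeR adjusted p 0.807). Here the library labelled CKO1 and CTR3 were both low, and the groups overlapped again.

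Among the 11 gamma A members, 7 had a positive and 4 a negative log2 fold change, and among the 7 gamma B members 4 were positive and 3 negative. None passed the test. Pcdhga2 had 14.2, 13.8 and 13.4 CPM in CKO1, CKO2 and CKO3, against 12.6, 12.0 and 14.4 CPM in CTR1, CTR2 and CTR3 (log2 fold change 0.09, SE 0.11, edgeR adjusted p 0.766). These groups overlapped through CTR3. Pcdhga7 had 9.66, 11.7 and 15.2 CPM in CKO1, CKO2 and CKO3, against 14.2, 13.04 and 10.6 CPM in CTR1, CTR2 and CTR3 (log2 fold change -0.05, SE 0.16, edgeR adjusted p 0.927), and its highest and lowest libraries were both CKO.

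The largest positive gamma log2 fold change belonged to Pcdhga1, the first gene of the cluster. It had 2.48, 5.14 and 4.37 CPM in CKO1, CKO2 and CKO3, against 2.63, 3.61 and 2.24 CPM in CTR1, CTR2 and CTR3 (log2 fold change 0.50, SE 0.26, edgeR adjusted p 0.346). Only the library labelled CKO1 fell among the controls. The largest negative one belonged to Pcdhga5, with 5.77, 7.79 and 7.86 CPM in CKO1, CKO2 and CKO3, against 8.61, 9.84 and 6.89 CPM in CTR1, CTR2 and CTR3 (log2 fold change -0.24, SE 0.16, edgeR adjusted p 0.486). CTR3 lay below the higher CKO libraries, so the groups overlapped.

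The beta genes were measured at lower levels, and the 9 genes from Pcdhb14 to Pcdhb22 held 73.6% of the beta counts. Pcdhb17 had the highest level of the cluster per kilobase, with 5.49, 3.52 and 5.56 CPM in CKO1, CKO2 and CKO3, against 6.90, 6.70 and 5.50 CPM in CTR1, CTR2 and CTR3 (log2 fold change -0.38, SE 0.19, edgeR adjusted p 0.296). The library labelled CKO2 was the lowest, and CTR3 fell among the CKO libraries. Pcdhb20 had 3.28, 3.54 and 3.08 CPM in CKO1, CKO2 and CKO3, against 4.39, 3.22 and 4.73 CPM in CTR1, CTR2 and CTR3 (log2 fold change -0.32, SE 0.21, edgeR adjusted p 0.471), with CTR2 among the CKO values. Pcdhb22 was the steadiest, with 6.02, 6.22 and 6.11 CPM in CKO1, CKO2 and CKO3, against 5.80, 6.78 and 6.304 CPM in CTR1, CTR2 and CTR3 (log2 fold change -0.04, SE 0.15, edgeR adjusted p 0.935). The CTR values of Pcdhb22 enclosed those of the CKO libraries.

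The extreme log2 fold changes of the beta cluster came from genes with few counts. Pcdhb8 had 18, 5 and 22 counts in CKO1, CKO2 and CKO3, against 27, 37 and 21 counts in CTR1, CTR2 and CTR3, which is 0.497, 0.145 and 0.556 CPM in the CKO libraries and 0.678, 0.961 and 0.561 CPM in the CTR libraries. The CPM of the groups just missed overlapping, since CKO3 at 0.556 CPM lay next to CTR3 at 0.561 CPM (log2 fold change -0.84, SE 0.52, edgeR adjusted p 0.432). Pcdhb13 had 19, 17 and 9 counts in CKO1, CKO2 and CKO3, against 7, 12 and 11 counts in CTR1, CTR2 and CTR3 (log2 fold change 0.65, SE 0.63, edgeR adjusted p 0.663), and its lowest CKO library lay among the controls. Pcdhb12, with 0 to 8 counts in each library, was not tested.

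Apart from its last gene, the alpha cluster had few counts at this depth. Pcdhac2, a C-type gene that serotonergic axons need for even spacing in mice, supplied 85.0% of the alpha counts. It had 1.24, 1.89 and 1.34 CPM in CKO1, CKO2 and CKO3, against 1.25, 0.961 and 2.08 CPM in CTR1, CTR2 and CTR3 (log2 fold change 0.05, SE 0.35, edgeR adjusted p 0.965). The highest and the lowest library were both CTR, and the groups overlapped. The other C-type alpha gene, Pcdhac1, had 0 counts in every CKO library and 1 count in CTR1 among the CTR libraries. A count of 0 allows up to 0.0758 to 0.0872 CPM in the CKO libraries (3 counts), and this limit covers counting error only.

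The remaining alpha members were Pcdha1, Pcdha3, Pcdha5, Pcdha9, Pcdha11 and Pcdha12, all too low to test. Pcdha3 had 0, 16 and 1 counts in CKO1, CKO2 and CKO3, against 0, 0 and 4 counts in CTR1, CTR2 and CTR3. Its counts thus came mainly from the library labelled CKO2. Pcdha9 had 4, 6 and 0 counts in CKO1, CKO2 and CKO3, against 0, 1 and 3 counts in CTR1, CTR2 and CTR3, with overlapping groups.

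Across the clusters, the test called 0 of 42 members, against 4.10% of all 17557 tested genes (532 higher and 188 lower in CKO hearts). At an unadjusted p under 0.05 it found 1 member, Pcdhgc3, against 17.8% of all tested genes. DESeq2 called 1 of 40 members, also Pcdhgc3, against 996 of all 16370 genes it tested. Limma-voom called 0 members, against 677 of all 17557 tested genes. The libraries of the groups did not overlap for 4 of 42 members (9.52%), against 22.1% of all tested genes. Of these 4, Pcdhgc3, Pcdhgb5 and Pcdhgb7 were higher and Pcdhb8 was lower in CKO hearts. Pcdhgb5 had 7.75, 7.29 and 7.15 CPM in CKO1, CKO2 and CKO3, against 5.92, 6.47 and 6.46 CPM in CTR1, CTR2 and CTR3 (log2 fold change 0.24, SE 0.15, edgeR adjusted p 0.437). Pcdhgb7 had 6.15, 6.10 and 6.34 CPM in CKO1, CKO2 and CKO3, against 5.62, 4.34 and 5.26 CPM in CTR1, CTR2 and CTR3 (log2 fold change 0.29, SE 0.17, edgeR adjusted p 0.389). Neither passed the test.

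Of the tested members, 21 had a positive and 21 a negative log2 fold change. In the gamma cluster 14 of 21 were positive, with a median of 0.08 and a range of -0.24 to 0.50. In the beta cluster 14 of 20 were negative, with a median of -0.22 and a range of -0.84 to 0.65. Over all tested genes the median was 0.00. Without the library labelled CKO2, 13 of 21 gamma members were positive and 16 of 20 beta members were negative. With Y-linked expression as a covariate, 11 of 21 gamma members were positive and 15 of 20 beta members were negative. Only 17 of the 42 members, 8 beta and 9 gamma, kept their sign in every alternative that fitted them. Among these, Pcdhb8, Pcdhb11, Pcdhb13 and Pcdhb15 were fitted in 16 of the 17 alternatives.

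**Figure D2:**
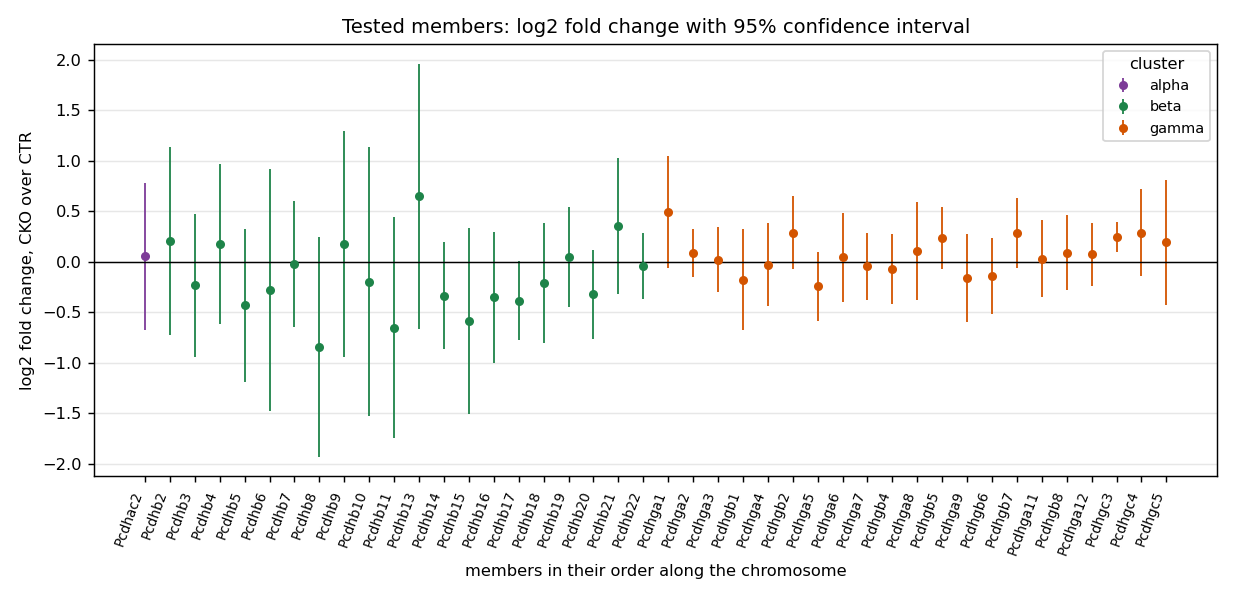
Log2 fold change (CKO over CTR, vertical axis) of the 42 tested members in chromosomal order, with 95% confidence intervals from edgeR. Purple marks the alpha, green the beta and orange the gamma cluster. The interval of Pcdhgc3 is the only one that excludes 0, and 2 beta and 14 gamma members have an SE below 0.2.

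The precision differed between the clusters. The median SE of the log2 fold change was 0.18 over the gamma members and 0.35 over the tested beta members. For 20 of 21 gamma members and 9 of 20 beta members the 95% interval lay wholly within a log2 fold change of 1 in either direction, as it did for Pcdhac2. For the other 12 tested members a difference of that size was not excluded by the interval. The missed threshold therefore does not show that the members were alike in the groups.

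Summed levels were compared as a description, with no test. The beta genes summed to 37.9, 35.8 and 34.3 CPM in CKO1, CKO2 and CKO3, against 41.3, 39.2 and 41.3 CPM in CTR1, CTR2 and CTR3. Every CKO sum was below every CTR sum, with means of 36.0 ± 1.81 CPM in CKO hearts and 40.6 ± 1.21 CPM in CTR hearts (SD, n = 3 each), a log2 ratio of -0.17. Leaving out single libraries gave log2 ratios of -0.21 to -0.14, and without the library labelled CKO2 it was -0.17.

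The gamma genes summed to 185.1, 187.3 and 193.3 CPM in CKO1, CKO2 and CKO3, against 175.7, 174.2 and 178.2 CPM in CTR1, CTR2 and CTR3. Here every CKO sum was above every CTR sum, with means of 188.6 ± 4.24 CPM in CKO hearts and 176.0 ± 2.004 CPM in CTR hearts (SD, n = 3 each), a log2 ratio of 0.10. Without scaling factors the gap narrowed to 181.31 CPM in CKO1 and 181.14 CPM in CTR3. Without Pcdhgc3 the gamma means were 133.7 ± 5.81 CPM in CKO hearts and 129.7 ± 1.74 CPM in CTR hearts, and the groups overlapped. The 3 gamma C genes together summed to 62.9 ± 2.59 CPM in CKO hearts and 53.0 ± 0.9754 CPM in CTR hearts, and the 11 gamma A genes to 78.0 ± 3.48 CPM in CKO hearts and 77.3 ± 2.37 CPM in CTR hearts (SD, n = 3 each).

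A ratio of the clusters within each library needs no scaling between libraries. For every 100 gamma counts there were 20.5, 19.1 and 17.7 beta counts in CKO1, CKO2 and CKO3, against 23.5, 22.5 and 23.2 beta counts in CTR1, CTR2 and CTR3. The ratio was lower in each CKO library than in any CTR library. The ribosomal RNA share also separated the groups without overlap, and its part in these ratios was not tested. The alpha genes summed to 1.43, 2.67 and 1.52 CPM in CKO1, CKO2 and CKO3, against 1.33, 1.01 and 2.40 CPM in CTR1, CTR2 and CTR3. These sums overlapped, and their log2 ratio of 0.24 became -0.10 without the library labelled CKO2.

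**Figure D3:**
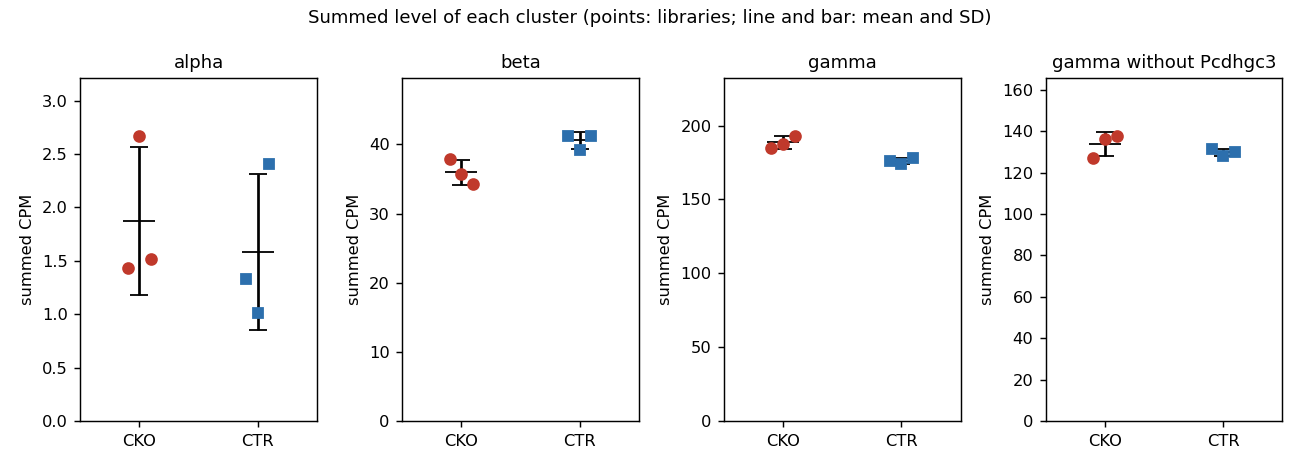
Summed level (CPM, axis from 0) of the alpha, beta and gamma genes and of the gamma genes without Pcdhgc3. Points are libraries, CKO in red circles and CTR in blue squares, and lines with bars give the mean and SD of 3 libraries. The beta and gamma sums do not overlap between the groups, in opposite directions, while the alpha sums and the gamma sums without Pcdhgc3 overlap.

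The members did not share a common pattern over the libraries. Each of the 6 libraries was the highest for 6 to 9 and the lowest for 5 to 10 of the 42 tested members. In the gamma cluster the library labelled CKO1 was the lowest for 6 members and the highest for 4, and CKO3 the highest for 6 and the lowest for 2. In the beta cluster CTR2 was both the highest for 6 and the lowest for 6 of the 20 tested members. The highest library exceeded the lowest by 1.17-fold for Pcdhb22, 1.20-fold for Pcdhga2 and 1.31-fold for Pcdhgc3, and by 6.61-fold for Pcdhb8 and 6.42-fold for Pcdhb10.

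**Figure D4:**
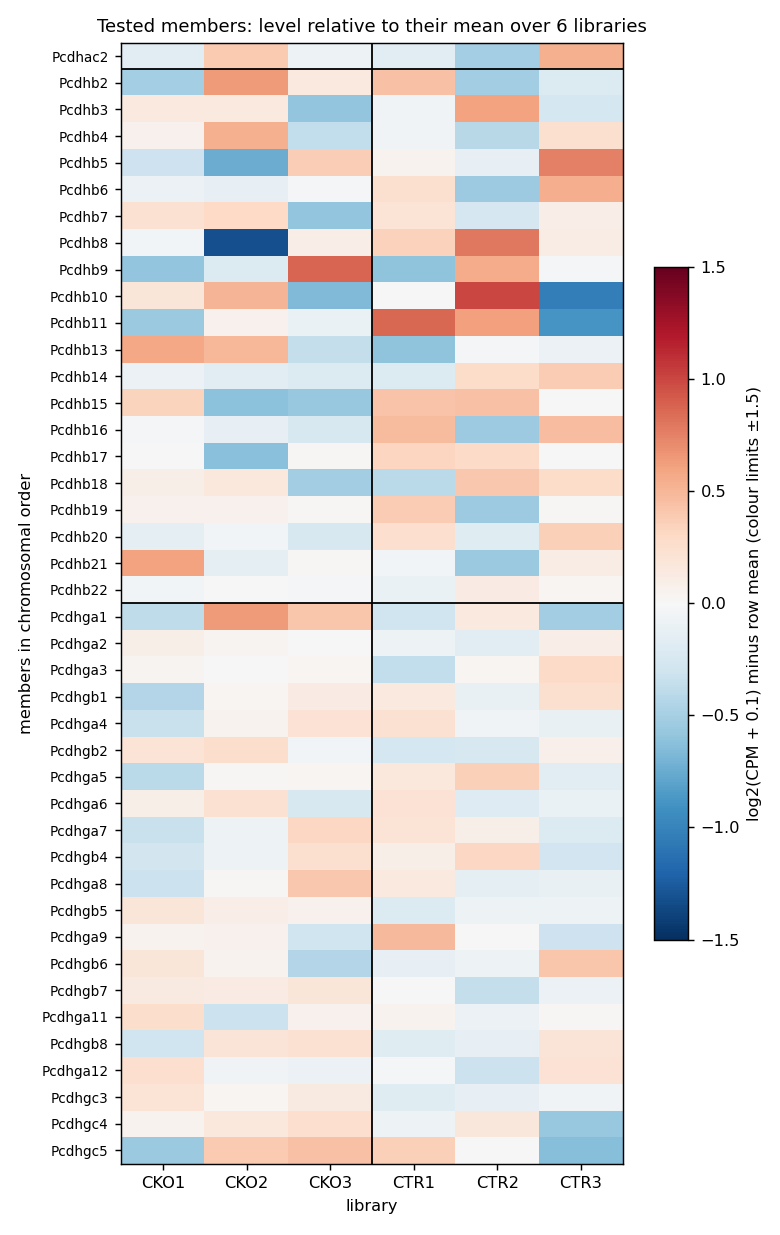
Level of each tested member in each library relative to its mean over the 6 libraries, as log2(CPM + 0.1) with the row mean subtracted. Columns are the CKO libraries, left, and the CTR libraries, right, and horizontal lines part the alpha, beta and gamma clusters. Some neighbouring members are highest in the same library, such as Pcdhga2 and Pcdhga3 in CTR3, and others in different ones. No library is high or low in all members of the beta or the gamma cluster.

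Chromatin and looping factors known to act at the clusters were read from the same fit. Of 30 such genes, all tested, 0 were higher and 2 were lower in CKO hearts, against 3.03% higher and 1.07% lower of all tested genes. The median log2 fold change was -0.11, and 28 of 30 were negative, among them Trim28 itself. Over all 17557 tested genes 8639 were negative. At an unadjusted edgeR p under 0.05 there were 12 of 30, against 17.8% of all tested genes. DESeq2 and limma-voom each called 0 higher and 3 lower. Over all genes tested, DESeq2 called 692 higher and 304 lower of 16370, and limma-voom 495 higher and 182 lower of 17557. Uhrf1, which guides maintenance DNA methylation, had 156, 154 and 145 CPM in CKO1, CKO2 and CKO3, against 180, 190 and 184 CPM in CTR1, CTR2 and CTR3 (log2 fold change -0.28, SE 0.05, edgeR adjusted p 0.0038). Atf7ip, a cofactor of SETDB1, had 124, 153 and 132 CPM in CKO1, CKO2 and CKO3, against 156, 164 and 169 CPM in CTR1, CTR2 and CTR3 (log2 fold change -0.26, SE 0.07, edgeR adjusted p 0.0336). In both genes every CKO library was below every CTR library. Without the library labelled CKO2, 3 of the 30 were lower, with the histone methyltransferase gene Ehmt1 added. In that fit 2.97% of all tested genes were lower. Leaving out any other single library ended the call of Atf7ip (edgeR adjusted p 0.0664 to 0.176) and kept that of Uhrf1, and the ribosomal RNA covariate ended both (0.3015 for Uhrf1 and 0.710 for Atf7ip).

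Rad21, a cohesin subunit, had a log2 fold change of -0.15 (SE 0.05, edgeR adjusted p 0.0982) and Ehmt1 of -0.18 (SE 0.06, edgeR adjusted p 0.09996). Outside the naming rule, and chosen for their known roles at the clusters, Setdb1 had a log2 fold change of -0.13 (edgeR adjusted p 0.266), Smchd1 of -0.13 (edgeR adjusted p 0.206) and Ctcf of -0.14 (edgeR adjusted p 0.183). None of these passed the test.

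The protein partners and effectors of clustered protocadherins numbered 24, all tested, and 0 were called in edgeR, DESeq2 or limma-voom, with 3 at an unadjusted edgeR p under 0.05, against 17.8% of all tested genes. There were 11 positive and 13 negative log2 fold changes. The lowest adjusted p of these was 0.159, for the receptor gene Ret, which had 1.85, 0.901 and 1.04 CPM in CKO1, CKO2 and CKO3, against 0.954, 0.286 and 0.321 CPM in CTR1, CTR2 and CTR3. CTR1 lay among the CKO values. Axin1, whose protein binds the Pcdhgc3 protein, had a log2 fold change of -0.15 (SE 0.07, edgeR adjusted p 0.269).

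Protocadherin genes outside the clusters included 14 that were tested, and 1 was called, against 4.10% of all tested genes. Pcdh12, an endothelial protocadherin, had 12.7, 14.3 and 13.8 CPM in CKO1, CKO2 and CKO3, against 18.4, 18.3 and 17.1 CPM in CTR1, CTR2 and CTR3 (log2 fold change -0.40, SE 0.10, edgeR adjusted p 0.0318). Every CKO library was below every CTR library. Of 8 endothelial markers 3 were also lower, Tek, Cdh5 and Kdr, against 1.07% of all tested genes. The markers summed to 1231 to 1441 CPM in CKO libraries and 1471 to 1556 CPM in CTR libraries. Without the library labelled CKO2, 6 of the 8 endothelial markers and 2 of 15 tested protocadherin genes outside the clusters, Pcdh1 and Pcdh12, were lower, while 2.97% of all tested genes were lower and 5.57% higher in that fit. Pcdh12 lost its call when any other single library was left out (edgeR adjusted p 0.0740 to 0.120). The ribosomal RNA covariate (edgeR adjusted p 0.3755) and the Y-linked covariate (edgeR adjusted p 0.123) ended it as well. The part of endothelial cell content in the Pcdh12 difference was not tested.

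Genes that flank or lie between the clusters had a median log2 fold change of 0.00 over the 25 that were tested. Pcdh12 was the 1 gene called among them, a share near that of all tested genes. Taf7, a general transcription factor gene between the beta and gamma clusters, had 30.0, 26.5 and 27.1 CPM in CKO1, CKO2 and CKO3, against 24.2, 27.0 and 22.9 CPM in CTR1, CTR2 and CTR3 (log2 fold change 0.17, SE 0.09, edgeR adjusted p 0.323). Diaph1, the first gene beyond the gamma cluster, had a log2 fold change of 0.095 (SE 0.07, edgeR adjusted p 0.567). Taf7 and Diaph1 are named for their position. Without the library labelled CKO2, 1 neighbour was higher (Gnpda1) and 3 were lower (Arap3, Pcdh1 and Pcdh12), in a fit that called 8.53% of all tested genes.

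Markers of neural crest, glia and neurons, cells in which clustered protocadherins are best known, were also present. Of 18 such genes 16 were tested, and 1, the glial receptor gene Erbb3, was lower in CKO hearts (log2 fold change -0.35, SE 0.10, edgeR adjusted p 0.0461). That call was lost in limma-voom (adjusted p 0.07125) and when CKO1, CKO3, CTR2 or CTR3 was left out (edgeR adjusted p 0.116 to 0.207). It was also lost in the non-robust edgeR fit (adjusted p 0.0518) and with Y-linked expression as a covariate (edgeR adjusted p 0.112). With the ribosomal RNA covariate the log2 fold change was -0.12 (edgeR adjusted p 0.869). The list summed to 76.0 to 85.3 CPM in CKO libraries and 81.4 to 91.1 CPM in CTR libraries, and the groups overlapped. The part of these cells in the protocadherin levels was not tested.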

How the data were processed

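The authors deposited raw read counts per gene symbol, as the column notes in the labels name them. Reads were placed on mm10, per the submitters' processing notes. For the aligner, the counting program and the annotation, a name is not given in the sources used here. All 6 columns were matched to samples by library name.

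Counts were tested with edgeR 4.0.16 in R 4.3.3 (TMM factors, filterByExpr with a minimum count of 10 and total of 15, glmQLFit with robust and legacy=FALSE, glmQLFTest, two-sided), with group as the only term and Benjamini-Hochberg adjustment over 17557 genes. Calls needed an adjusted p under 0.05. SE values are the log2 fold change over the square root of F. CPM used TMM-scaled library sizes. The code was tested on simulated counts. Members and gene lists were chosen with earlier results of these data known. Members named with values were the C-type genes, the 3 with the highest level per kilobase in each cluster, and the extreme log2 fold changes. Pcdhgb5 and Pcdhgb7 were named after their values were seen. Up to 4 genes of each list with the lowest adjusted p could be named. Other clustered genes of the annotation were not analysed here.

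Alternatives were DESeq2 1.42.0, limma-voom (limma 3.58.1), RLE or no scaling, edgeR's non-robust and legacy fits, 2 other filters, a replicate block, leaving out each library, and ribosomal RNA share or Y-linked expression as a covariate.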

Additional observations from a re-analysis of the deposited data

How the results depend on the processing

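The count of called members was 0, and it became 1, Pcdhgc3 in each case, with DESeq2, without a filter on low counts, with at least 1 CPM in 3 libraries and with the legacy fit, which was chosen after seeing the data. Leaving out single libraries gave 0 to 1 called members, the 1 being without the library labelled CKO2. Calls over all genes numbered 720, against 1251 without a filter, 56 with the ribosomal RNA covariate and 301 to 1552 when single libraries were left out. The gamma median level per kilobase moved to 1.14 CPM by whole exon length, whose denominator holds the shared exons. Members not named with values also turned over, such as Pcdhb5, at -0.43 in the main fit and up to 0.21 in the alternatives. Among the members named with values, some log2 fold changes turned over in a few fits, none of them past the threshold. Pcdhga7 became 0.091 without CKO1 and 0.042 without CTR1. Pcdhac2 became -0.14 without CKO2, -0.038 without CTR1, -0.17 without CTR2 and -0.44 with the Y-linked covariate, and reached 0.57 with the ribosomal RNA covariate and, among fits that left out a library, 0.41 without CTR3. Pcdhb22 became 0.014 without CTR2 and 0.058 with the ribosomal RNA covariate. Pcdhgc5 became -0.043 without CTR3 and -0.25 with the ribosomal RNA covariate, and was at most 0.45 among fits that left out a library, without CTR1. The cause was not tested. The deviations of same-numbered libraries had correlations of 0.001, 0.017 and 0.003. The labels do not state that the numbers pair the samples, and such correlations cannot exclude pairs with small effects. A fit with the replicate number as a block called 0 members and 676 genes, without Pcdh12 (edgeR adjusted p 0.0504), and gave Pcdhgc3 a log2 fold change of 0.25 with an edgeR adjusted p of 0.0779. Leaving out single libraries gave log2 ratios of the sums of -0.10 to 0.68 for alpha, -0.21 to -0.14 for beta and 0.08 to 0.11 for gamma. Depth limits the alpha members and the lower beta members most.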

Other observations

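The spread of the members between libraries of the same group was read as a Pearson dispersion (the squared deviation of counts over that of counting error, with 4 degrees of freedom, where 1 is counting error alone). The median was 5.42 over the 42 tested members and 5.12 over all tested genes. Among genes averaging 8 to 16 CPM, the 6 members had a median of 11.9, and all 1732 genes of that level had 4.58. Among genes averaging 3 to 8 CPM, the 17 members had a median of 5.22, and all 1714 genes had 4.27. These bands were chosen after the values were seen, and no test was made of the difference.

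Markers of other heart cell types differed between the groups, as the edgeR test called them. Over all tested genes 3.03% were higher and 1.07% lower, and without the library labelled CKO2 5.57% were higher and 2.97% lower. Of 4 smooth muscle genes 3 were higher in CKO hearts, Acta2, Myh11 and Cnn1, and the same 3 without the library labelled CKO2. Of 10 cardiomyocyte genes 3 were higher in CKO hearts, Myl7, Myh6 and Myl4. The 10 had 6 positive and 4 negative log2 fold changes, and Myh7 was at -0.23 (SE 0.08, edgeR adjusted p 0.138). Without the library labelled CKO2, 4 of 9 genes were higher and 1, Myh7, was lower, and Nkx2-5 was not read out of that fit. Of 6 epicardial genes 0 were called in edgeR, DESeq2 or limma-voom, with 1 at an unadjusted edgeR p under 0.05. Of 5 macrophage genes 1 was higher, or 2 without that library, and of 8 mesenchymal genes 1 was higher and 1 lower. Of 6 erythroid genes 0 were called, and all 6 had a negative log2 fold change. They summed to 931 to 1033 CPM in CKO libraries and 1041 to 1807 CPM in CTR libraries. Which of these cells hold the protocadherin RNA was not measured in whole-heart libraries.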
